A study of Homo sapiens with 24 samples.

Results

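The genes described here are the subunits of the transcription factor AP-1 and 3 early response genes measured with them: FOS, FOSB, FOSL1 and FOSL2 of the FOS family, JUN, JUNB and JUND of the JUN family, and EGR1, IER2 and IER3. They were chosen by name, with earlier results of these data known. They are 10 of the 28907 gene symbols in the deposited table, and all 10 were found. The series holds 24 RNA-seq libraries, 3 for each of 8 groups, from 2 ovarian cancer cell lines, ES2 and A2780, both labelled wild type. Each line was given an siRNA against the nuclear kinase VRK1 (siVRK1), a control siRNA (siCtrl), the plant flavone luteolin, or DMSO. The labels state neither the luteolin dose nor any treatment time, and nothing in them tells whether replicates were grown apart. The p-values therefore rest on a spread among libraries that may be technical.

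AP-1 is a dimer: JUN proteins pair with each other or with FOS proteins, while FOS proteins need a JUN partner, and the dimer binds the DNA element TGANTCA (TRE) or the related TGACGTCA (CRE). The genes JUN and FOS themselves are immediate early genes, transcribed within minutes of a growth signal or stress without new protein synthesis. This runs through factors such as SRF, which binds the CArG box, and through MAP kinases that phosphorylate those factors. JUNB and JUND are weaker activators than JUN in many settings, and FOSL1 and FOSL2 lack the strong activation domain of FOS and FOSB. EGR1 is a zinc finger factor of the same early wave, IER2 a small nuclear protein induced with it, and IER3 a stress-inducible protein linked to survival signalling.

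The promoters of 4 members are shown, EGR1 for its CArG boxes and JUND for its whole CRE. FOS and FOSB are shown because they were among the pairs whose levels moved most alike. Each of the 4 promoters is 250 bases before to 50 after the RefSeq gene start on GRCh38.p14, read on the strand of the gene. Capitals mark every match, on either strand, to the 6 motifs searched: TGANTCA, TGACGTCA, its shorter core TGACG (the short CRE site), the CArG box, the EGR site GCGNGGGCG and the TATA core TATAAA. On GRCh38 (GENCODE 29) FOSB, JUNB, JUND and IER2 lie on chromosome 19, EGR1 spans chr5:138465490-138469315, FOS chr14:75278774-75282230, FOSL1 chr11:65892049-65900573, FOSL2 chr2:28392448-28417312, JUN chr1:58780788-58784327 and IER3 chr6:30743199-30744554. The promoter regions are chr5:138465229-138465528 (+ strand), chr14:75278578-75278877 (+), chr19:45467746-45468045 (+) and chr19:18281573-18281872 (- strand).
EGR1: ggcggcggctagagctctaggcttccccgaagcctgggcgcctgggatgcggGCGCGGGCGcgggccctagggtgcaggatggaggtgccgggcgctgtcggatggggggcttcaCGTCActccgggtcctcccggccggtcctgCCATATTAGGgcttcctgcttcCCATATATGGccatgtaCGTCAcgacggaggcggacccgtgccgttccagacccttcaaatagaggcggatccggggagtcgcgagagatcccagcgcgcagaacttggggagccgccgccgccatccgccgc
FOS: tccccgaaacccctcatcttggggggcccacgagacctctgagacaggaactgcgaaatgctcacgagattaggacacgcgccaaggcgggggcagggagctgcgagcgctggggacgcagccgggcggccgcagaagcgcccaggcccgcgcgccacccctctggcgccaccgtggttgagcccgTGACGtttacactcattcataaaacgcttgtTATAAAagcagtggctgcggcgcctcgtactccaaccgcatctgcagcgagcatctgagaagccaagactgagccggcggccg
FOSB: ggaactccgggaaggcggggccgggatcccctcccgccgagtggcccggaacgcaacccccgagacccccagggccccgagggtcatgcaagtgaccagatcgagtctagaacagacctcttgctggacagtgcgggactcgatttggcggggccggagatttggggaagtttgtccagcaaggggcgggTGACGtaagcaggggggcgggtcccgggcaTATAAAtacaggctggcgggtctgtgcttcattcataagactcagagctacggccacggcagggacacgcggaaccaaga
JUND: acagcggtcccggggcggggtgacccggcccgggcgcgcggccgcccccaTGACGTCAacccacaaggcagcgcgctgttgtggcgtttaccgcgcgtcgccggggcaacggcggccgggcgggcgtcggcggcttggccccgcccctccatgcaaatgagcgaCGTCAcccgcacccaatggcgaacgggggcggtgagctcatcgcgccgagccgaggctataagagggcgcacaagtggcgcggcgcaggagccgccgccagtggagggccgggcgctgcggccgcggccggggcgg
The EGR1 promoter held 2 CArG boxes, CCATATTAGG starting 105 bases and CCATATATGG starting 83 bases before the gene start, an EGR site and 2 short CRE sites. Among 35116 RefSeq promoters of the same length, 1.29% held a CArG box and 9.43% an EGR site. No other member with an entry held a CArG box or an EGR site in its window, and bases outside the windows were not searched. FOS and FOSB each had 1 short CRE site and 1 TATA core, at like distances: the short CRE site began 64 and 60 bases and the TATA core 33 and 30 bases before their starts. JUNB had both as well, beginning 137 and 31 bases before its start, and FOSL2 and EGR1 each had a short CRE site beginning at 66. A TATA core was found in 11.5% of promoters, and a link between these sites and the levels was not tested. JUND was the only 1 of the 8 members with an entry that held the whole CRE, found in 1.85% of promoters, and FOSL2 the only 1 with a TRE, TGACTCA from base 5 after its start, found in 7.71%. The short CRE site, present in 24.6% of promoters, was matched in all 8, which include JUN, JUNB and IER2. FOSL1 and IER3 have no entry in the table. A match describes the letters of the window and is not evidence of binding.

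The values are transcripts per 1000000 (TPM). Depth cannot be read from them, so no counting interval can be given. Genes at 1 TPM or more numbered 11792 to 12862 per library. VRK1 averaged 3.73 ± 0.70 TPM in siVRK1 ES2 cells and 64.6 ± 2.2 TPM in siCtrl ES2 cells, and 9.57 ± 1.68 TPM in siVRK1 A2780 cells and 54.4 ± 0.8 TPM in siCtrl A2780 cells (SD, n = 3 each). Because a pair of ES2 siVRK1 columns carry the same name, they are labelled a and b here, beside library 3. The line markers were uneven: 8 epithelial and ovarian carcinoma genes summed to between 636 and 992 TPM in the ES2 libraries and 5.48 to 12.1 TPM in the A2780 libraries. In A2780, KRT7, PAX8 and MUC16 were at or under 0.0329 TPM, and MUC16 was listed at 0 in ES2. The ES2 sum was mostly keratins, KRT7 (323 to 501 TPM), KRT18 (197 to 540) and KRT8 (46.7 to 91.9). CDH1 was at most 0.107 TPM in ES2, and EPCAM was at most 0.293 TPM in ES2 and 0.682 to 2.01 TPM in A2780. The 6 leukocyte markers summed to 36 to 79 TPM in ES2, nearly all of it CD68 (34.7 to 78.4 TPM), and 2.16 to 6.93 TPM in A2780; PTPRC was at most 0.569 TPM in all 24 libraries and CD3E was listed at 0. In such bulk samples fewer expressing cells and less RNA per cell cannot be told apart. Fold changes below are log2 differences of TPM + 1 from limma, ± standard error, with p adjusted by Benjamini-Hochberg across every gene in the fit and called under 0.05; the added 1 understates changes of genes near or under 1 TPM. Where a value is given relative to the median gene, the p beside it tests the difference before that shift.

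The 2 lines held different AP-1 subunits. In ES2 the JUN family transcripts were mostly JUN and the FOS family transcripts mostly FOSL1, whereas A2780 had mainly JUND and JUNB, almost no JUN, and a FOS family split over 4 members, which summed to 13.1 to 15.5 TPM in the groups without luteolin and 92.4 TPM with it. In the DMSO libraries JUN measured 146, 143 and 132 TPM in ES2, against 0.109, 0.204 and 0.134 TPM in A2780. FOSL1 measured 552, 543 and 538 TPM in ES2 DMSO libraries, against 1.73, 1.99 and 1.74 TPM in A2780 DMSO libraries. No library of one line came near the range of the other: the lowest ES2 values were 112 TPM for JUN and 538 TPM for FOSL1, and the highest A2780 values under any treatment were 4.77 and 47.5 TPM. The ratio of mean TPM, ES2 over A2780, was 299 for FOSL1 in DMSO libraries and 149 in siCtrl libraries, and 942 and 301 for JUN, where the A2780 level is so low that the ratio is uncertain.

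**Figure D1:**
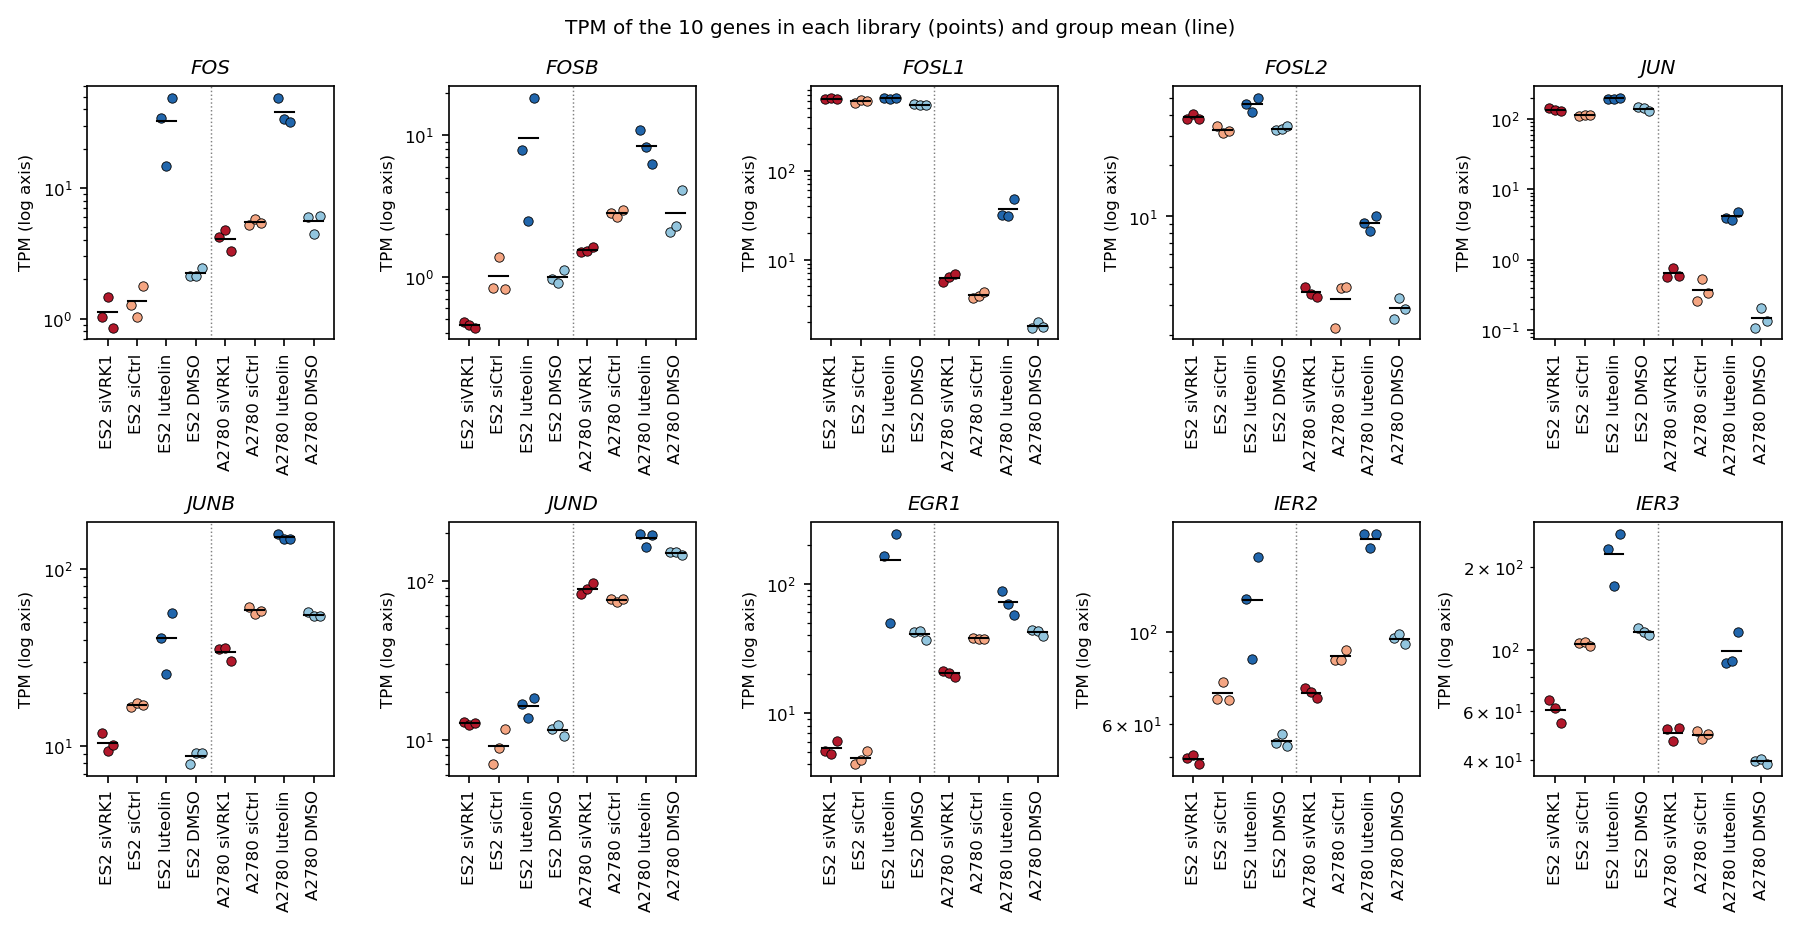
TPM of each of the 10 genes on log axes, 1 point per library and a line at the mean of the 3 libraries of a group, with ES2 groups left of the dotted line and A2780 groups right of it. JUN and FOSL1 stand above 100 TPM in every ES2 library and under 50 TPM in every A2780 library, while EGR1 spans 4.03 to 243 TPM within ES2.

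JUND and JUNB ran the other way. JUND measured 11.7, 12.3 and 10.6 TPM in ES2 DMSO libraries, against 152, 150 and 144 TPM in A2780 DMSO libraries. JUNB measured 7.93, 9.18 and 9.19 TPM in ES2 DMSO libraries, against 57.3, 54.2 and 54.5 TPM in A2780 DMSO libraries. The groups did not overlap for either gene.

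Tested over the siCtrl and DMSO libraries of both lines together, all 10 members differed between ES2 and A2780, in a contrast that called 83.7% of the 14328 genes tested, 34.3% as higher and 49.4% as lower, so the count itself says little. The median gene was lower by 0.17 in ES2 on the log2 scale, and rescaling moved it to -0.03, so the differences are given relative to it. FOSL1 was higher in ES2 by 7.42 ± 0.08, JUN by 6.83 ± 0.05, FOSL2 by 3.23 ± 0.09 and IER3 by 1.47 ± 0.08. The 6 members lower in ES2 were JUND at -3.09 ± 0.08, JUNB at -1.96 ± 0.11, EGR1 at -1.28 ± 0.23, FOS at -1.07 ± 0.19, FOSB at -0.75 ± 0.26 and IER2 at -0.39 ± 0.08; adjusted p ranged from 1.54e-27 for JUN to 0.00265 for FOSB. EGR1 is an uneven case: it averaged 4.46 ± 0.53 TPM in ES2 siCtrl libraries and 37.8 ± 0.5 TPM in A2780 siCtrl libraries, but 40.7 ± 3.4 TPM in ES2 DMSO libraries and 42.5 ± 2.4 TPM in A2780 DMSO libraries (SD, n = 3 each), whose ranges overlap.

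As shares of the summed TPM of each family, which compare transcripts per length, JUN held 77.7% ± 5.0 (ES2 luteolin) to 87.3% ± 0.7 (ES2 DMSO) of the JUN family in the 4 ES2 groups and 0.073% ± 0.024 (A2780 DMSO) to 1.22% ± 0.14 (A2780 luteolin) in the 4 A2780 groups (SD, n = 3 each). FOSL1 held 88.1% ± 3.3 (luteolin) to 94.5% ± 0.4 (siCtrl) of the FOS family in ES2. In A2780 its share was 40.6% ± 4.4 with siVRK1 and 25.7% ± 1.4 with siCtrl, and 39.7% ± 9.1 with luteolin and 14.1% ± 2.4 with DMSO. The families also differed in size: in DMSO libraries the FOS family summed to 581 ± 6 TPM in ES2 and 13.1 ± 1.5 TPM in A2780, and the JUN family to 161 ± 7 TPM in ES2 and 204 ± 5 TPM in A2780.

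**Figure D2:**
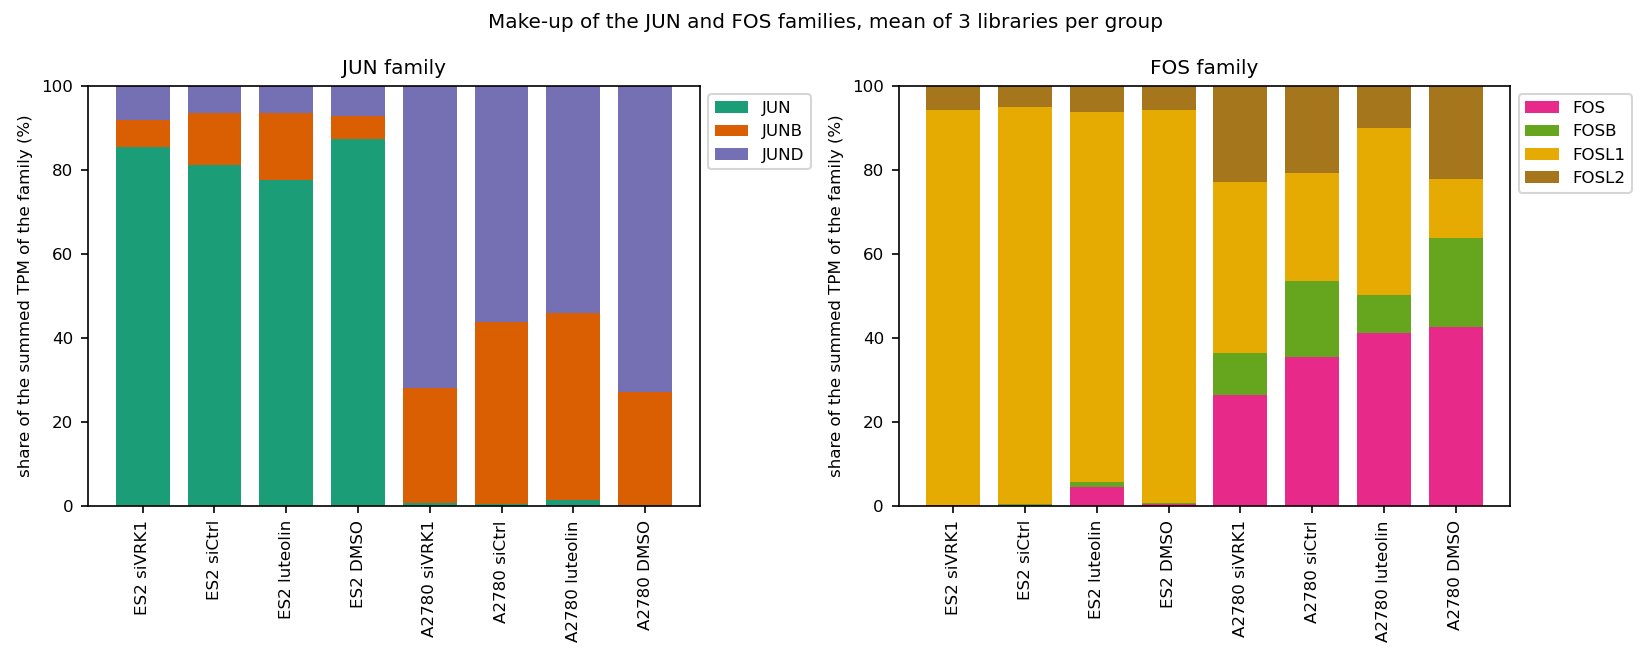
Share of each member in the summed TPM of the JUN family and of the FOS family, as stacked bars of the mean of 3 libraries per group. JUN fills 77.7% to 87.3% of the JUN family bars of ES2 and at most 1.22% of those of A2780, and FOSL1 fills 88.1% to 94.5% of the FOS family bars of ES2.

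With luteolin all 10 members were higher in ES2. The strongest were FOS, FOSB, JUNB and EGR1, while JUN, FOSL1, FOSL2 and JUND rose by less than 0.5 on the log2 scale. FOS measured 34.6, 14.7 and 49.4 TPM with luteolin, against 2.11, 2.13 and 2.45 TPM with DMSO. FOSB measured 7.83, 2.48 and 18.5 TPM with luteolin, against 0.967, 0.898 and 1.12 TPM with DMSO. EGR1 measured 164, 49.9 and 243 TPM with luteolin, against 42.4, 43.0 and 36.8 TPM with DMSO. In each case every luteolin library lay above every DMSO library, but luteolin library 2 stood much closer to DMSO than the other two.

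In this contrast 48.4% of the 12507 genes tested were called, 22.6% as higher and 25.8% as lower, against 10 of 10 members higher, FOSB included. The members were chosen with earlier results of these data known, so this count is a description. FOSB reached 1 TPM in only 2 of the 9 ES2 libraries without luteolin, so it passed the filter only with the luteolin group and its change there is a description. The changes were 3.24 ± 0.32 for FOS (adjusted p = 4.57e-06), 2.08 ± 0.43 for FOSB, 2.04 ± 0.20 for JUNB (5.4e-06) and 1.61 ± 0.40 for EGR1 (0.00551). JUNB measured 40.9, 25.6 and 56.4 TPM with luteolin, against 7.93, 9.18 and 9.19 TPM with DMSO. IER2 changed by 1.07 ± 0.14 and IER3 by 0.90 ± 0.12.

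The remaining subunits had smaller changes. JUN, the transactivating partner of most FOS proteins, measured 194, 192 and 202 TPM with luteolin, against 146, 143 and 132 TPM with DMSO, a change of 0.48 ± 0.04 (adjusted p = 2.34e-06). FOSL2 changed by 0.46 ± 0.07 and FOSL1 by 0.25 ± 0.03, with 649 ± 19 TPM for FOSL1 with luteolin and 544 ± 7 TPM with DMSO (SD, n = 3 each). JUND changed by 0.45 ± 0.14 (adjusted p = 0.0206), a call that was lost without luteolin library 1, luteolin library 3 or DMSO library 3 (adjusted p = 0.0617, 0.0805 and 0.0713).

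The 3 ES2 luteolin libraries did not agree in size. Library 2 held the lowest and library 3 the highest value for all 10 members, and for 23 and 22 of the 23 other immediate early genes tested; over all 12507 genes, library 2 was lowest for 51.5% and library 3 highest for 50.1%. The SD of log2 values among these libraries was 1.18 for EGR1, 1.24 for FOSB and 0.86 for FOS, against a median of 0.11 over all genes. Mitochondrial transcripts made up 7.23%, 8.69% and 7.43% of the TPM of luteolin libraries 1, 2 and 3, against 4.03% to 5.15% in ES2 DMSO libraries. The 6 fibroblast markers summed to 13.3 to 18.6 TPM with luteolin and 107 to 129 TPM with DMSO (mainly COL1A1), the 4 endothelial markers to 9.79 to 10.8 TPM with luteolin and 36.2 to 40 TPM with DMSO (mainly CDH5), and the 8 epithelial markers to 705 to 775 TPM with luteolin and 952 to 992 TPM with DMSO. The part of these shifts in the results was not tested. Without library 2 all 10 members stayed past the threshold, FOSB as a description, with EGR1 at 2.27, FOS at 3.71, FOSB at 2.72 and JUNB at 2.33. These were the highest values over the fits that leave out 1 library. The lowest were 1.14 for EGR1, 2.87 for FOS, 1.48 for FOSB and 1.78 for JUNB. Because the ES2 groups share 1 estimate of the spread, the standard errors of EGR1, FOS and FOSB in the other ES2 comparisons carry this scatter too. In the luteolin comparison the shared estimate understates the scatter among the luteolin libraries. The SD of EGR1 was 1.18 there, against 0.12 with DMSO, 0.14 with siCtrl and 0.15 with siVRK1. For JUNB it was 0.56 with luteolin and 0.11 with DMSO. The standard errors and p-values given for luteolin in ES2 are therefore too small for EGR1, FOS, FOSB and JUNB.

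**Figure D3:**
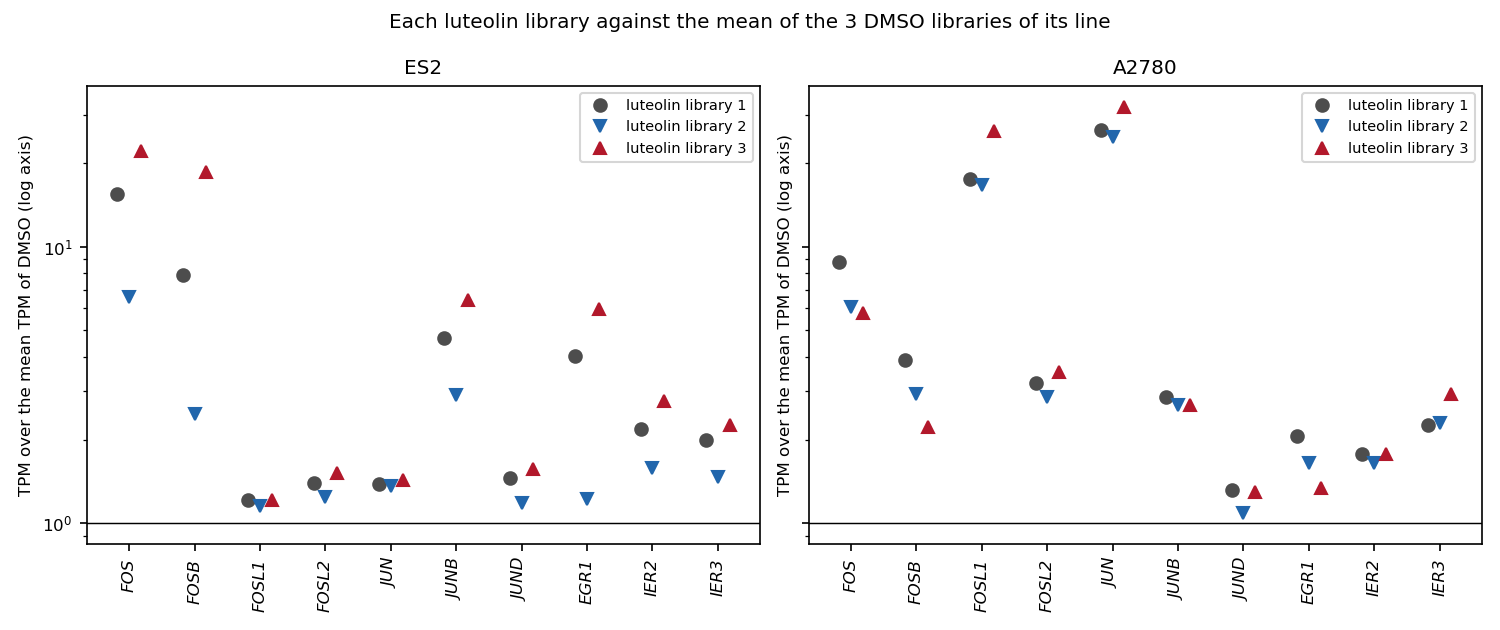
TPM of each luteolin library divided by the mean TPM of the 3 DMSO libraries of the same line, on log axes, for ES2 (left) and A2780 (right). In ES2 library 2 is lowest and library 3 highest for all 10 genes, while in A2780 no library holds that place for all of them; all points lie above 1.

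With luteolin all 10 members were higher in A2780 as well, with FOSL1 and FOS leading. FOSL1 measured 32.0, 30.5 and 47.5 TPM with luteolin, against 1.73, 1.99 and 1.74 TPM with DMSO. JUN measured 3.94, 3.70 and 4.77 TPM with luteolin, against 0.109, 0.204 and 0.134 TPM with DMSO. FOS measured 48.7, 33.6 and 31.9 TPM with luteolin, against 6.04, 4.47 and 6.16 TPM with DMSO. These luteolin and DMSO libraries were far apart, a 20.2-fold ratio of mean TPM for FOSL1 and 6.85-fold for FOS. JUN reached 1 TPM in none of the 9 other A2780 libraries, so it passed the filter only through the luteolin group. Its values there, and its place in the count of 10, are a description.

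Of the 13012 genes tested 65.5% were called, 45.6% as higher and 19.9% as lower, and the median gene was 0.22 above 0; median-of-ratios scaling moved this median to -0.02 and the calls to 3903 higher and 4519 lower, from 5938 and 2585. Relative to the median gene, FOSL1 rose by 3.5 ± 0.15 (adjusted p = 8.63e-10), FOS by 2.34 ± 0.16 (4.15e-08) and JUNB by 1.22 ± 0.06 (2.73e-09). FOSL2 rose by 1.18 ± 0.16, FOSB by 1.11 ± 0.20, IER3 by 1.08 ± 0.09, IER2 by 0.58 ± 0.05 and EGR1 by 0.50 ± 0.12. EGR1 measured 87.9, 70.3 and 57.0 TPM with luteolin, against 44.3, 43.4 and 39.7 TPM with DMSO. JUND measured 196, 162 and 193 TPM with luteolin, against 152, 150 and 144 TPM with DMSO, which is 0.08 ± 0.07 above the median gene; its call was lost with median-of-ratios scaling (0.04, adjusted p = 0.743). In A2780 the mitochondrial share was 9.39% to 12.1% with luteolin and 5.96% to 7.97% with DMSO, and the fibroblast markers, mainly THY1, summed to 31.4 to 38.2 TPM with luteolin and 47.9 to 55.4 TPM with DMSO; their part in the results was not tested. For all 10 members every luteolin library lay above every DMSO library in both lines, with JUN in A2780 and FOSB in ES2 as a description. Of all genes tested, 46.2% showed this order in A2780 and 25.8% in ES2.

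**Figure D4:**
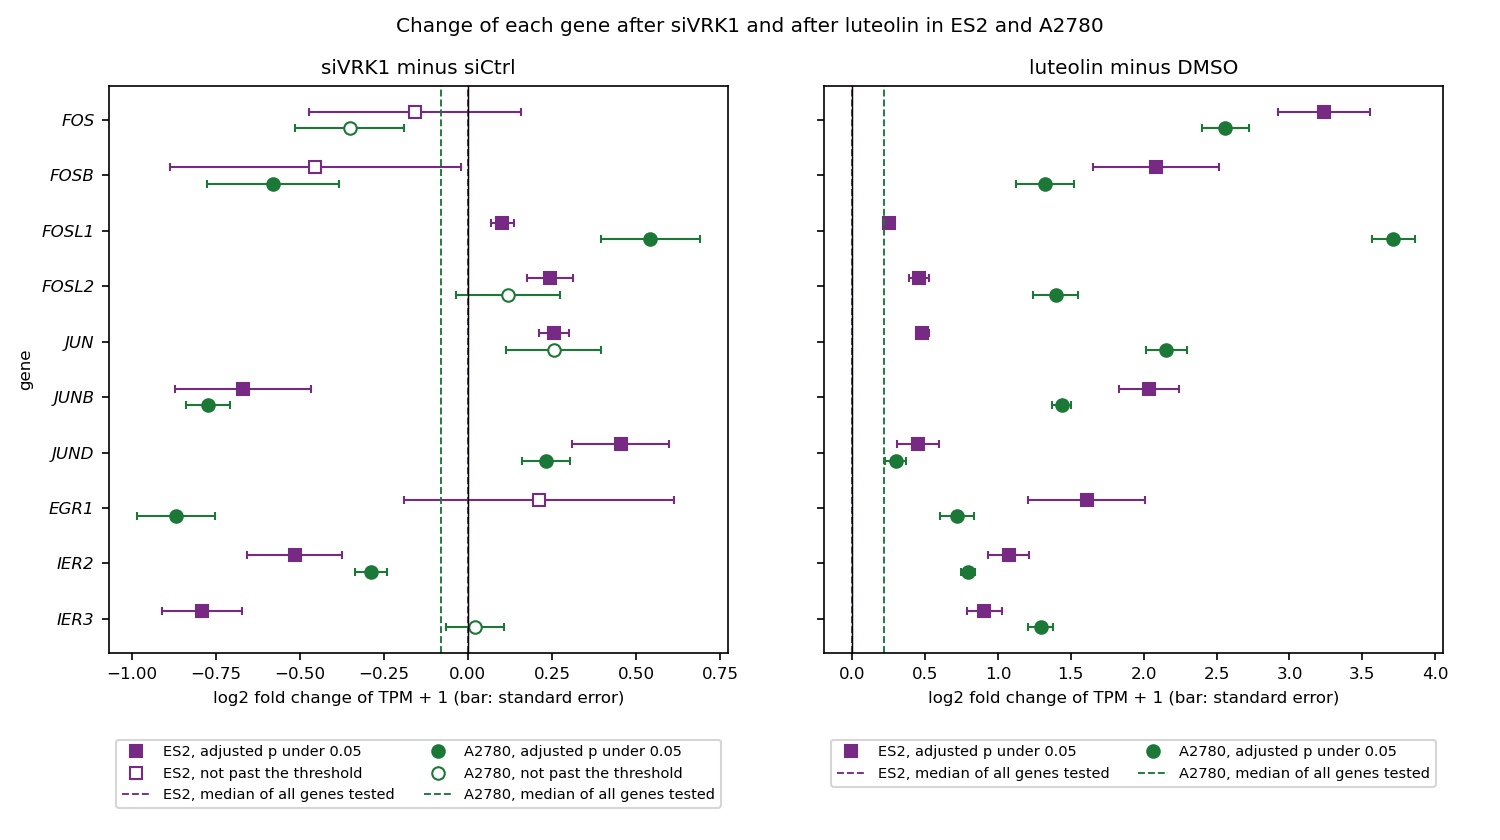
Log2 fold change of TPM + 1 with its standard error for each gene, siVRK1 minus siCtrl (left) and luteolin minus DMSO (right), in ES2 (squares) and A2780 (circles); filled symbols passed an adjusted p of 0.05 and dashed lines mark the median of all genes tested. With luteolin all 10 genes lie right of 0 in both lines, FOSL1 at 3.71 in A2780 and 0.25 in ES2, whereas siVRK1 values lie on both sides of 0.

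The luteolin response differed between the lines for 5 of the 10 members, in a test of the difference that called 50.5% of 14328 genes, 14.7% as higher and 35.8% as lower. The difference, ES2 minus A2780, was -3.46 ± 0.15 for FOSL1 (adjusted p = 9.55e-13), -1.68 ± 0.11 for JUN (2.65e-10) and -0.94 ± 0.17 for FOSL2 (0.000139), the 3 subunits that ES2 held at higher levels without luteolin. The DMSO libraries enter both those levels and this difference, so the 2 are not independent, and a link was not tested. The difference was 0.60 ± 0.23 for JUNB (adjusted p = 0.0355) and -0.39 ± 0.16 for IER3 (0.0486). The median gene differed by -0.20, and relative to it these values were -3.27, -1.48, -0.74, 0.80 and -0.19. JUNB lost its call in 7 of the 12 fits that leave out 1 library and IER3 in 8, and IER3 lost it under both rescalings (adjusted p = 0.345 and 0.235). For EGR1 the difference was 0.89 ± 0.46 (adjusted p = 0.116) and for FOS 0.68 ± 0.38 (0.15), neither past the threshold, and relative to the median gene 1.08 and 0.87. Without ES2 luteolin library 2 the differences before the shift were 1.55 for EGR1 (adjusted p = 5.82e-06) and 1.15 for FOS (0.00112), and 8 members were called. Those were the highest values over the 12 fits that leave out 1 library, and the lowest were 0.42 for EGR1 and 0.31 for FOS. With median-of-ratios scaling 7 members were called and with the 12 luteolin and DMSO libraries alone 3.

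siVRK1 moved the members in both directions in A2780. EGR1 and JUNB were lower and FOSL1 and JUND higher. EGR1 measured 21.3, 20.5 and 19.0 TPM with siVRK1, against 38.3, 37.5 and 37.5 TPM with siCtrl. JUNB measured 35.6, 35.8 and 30.4 TPM with siVRK1, against 61.2, 56.1 and 58.3 TPM with siCtrl. FOSL1 measured 5.54, 6.45 and 6.85 TPM with siVRK1, against 3.72, 3.87 and 4.38 TPM with siCtrl. The siVRK1 and siCtrl libraries did not overlap for these genes. In all, 8 of the 10 members showed no overlap, 3 higher and 5 lower, against 18.8% and 34.5% of all genes.

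In that comparison 40.9% of the 13012 genes tested were called, and 6 of 10 members, 2 higher and 4 lower, against 13.8% of all genes higher and 27.0% lower (1799 and 3519 genes, which became 2640 and 2695 under median-of-ratios scaling). EGR1 fell by 0.87 ± 0.12 (adjusted p = 9.2e-05), JUNB by 0.77 ± 0.06 (2.41e-06) and IER2 by 0.29 ± 0.05 (0.000446). FOSL1 rose by 0.54 ± 0.15 (adjusted p = 0.0102). JUND rose by 0.23 ± 0.07 (adjusted p = 0.0206), which was lost without siVRK1 library 3 or siCtrl library 2 (0.0899 and 0.0685). FOSB measured 1.5, 1.52 and 1.62 TPM with siVRK1, against 2.81, 2.66 and 2.95 TPM with siCtrl, and its fall of 0.58 ± 0.20 (adjusted p = 0.0321) did not hold when any 1 of the 6 libraries was left out (adjusted p = 0.0582 to 0.0827). FOS (-0.35 ± 0.16, adjusted p = 0.102), JUN (0.26 ± 0.14), FOSL2 (0.12 ± 0.16) and IER3 (0.02 ± 0.09) did not pass. JUN measured 0.567, 0.755 and 0.596 TPM with siVRK1, against 0.263, 0.53 and 0.335 TPM with siCtrl, with no overlap. At these levels under 1 TPM the added 1 understates the change, and JUN passed the filter only through the luteolin group. The fibroblast markers summed to 37.4 to 42.3 TPM with siVRK1 and 23.7 to 26 TPM with siCtrl, and the epithelial markers to 6.97 to 8.17 TPM with siVRK1 and 10.3 to 12.1 TPM with siCtrl; their part in these results was not tested.

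In ES2, siVRK1 gave lower IER3, JUNB and IER2 and slightly higher JUN, FOSL2, JUND and FOSL1 than siCtrl. The ES2 DMSO means were 8.77 TPM for JUNB, 54.5 for IER2, 140 for JUN and 11.5 for JUND. Each of these lay nearer the siVRK1 than the siCtrl mean, and the reason was not tested. For IER3 (116 TPM), FOSL2 (33.0) and FOSL1 (544) the DMSO mean lay nearer the siCtrl mean. IER3 measured 65.6, 61.5 and 54.5 TPM with siVRK1, against 106, 107 and 103 TPM with siCtrl. JUNB measured 11.9, 9.37 and 10.1 TPM with siVRK1, against 16.7, 17.5 and 17.2 TPM with siCtrl. JUN measured 141, 136 and 130 TPM with siVRK1, against 112, 113 and 114 TPM with siCtrl. The groups were separate for all 3, and for 8 of 10 members, 4 higher and 4 lower, against 30.9% and 32.2% of all genes. In the test 54.8% of 12507 genes were called, 26.8% higher and 28.0% lower, against 4 members higher and 3 lower of 10. IER3 fell by 0.79 ± 0.12 (adjusted p = 0.00012), JUNB by 0.67 ± 0.20 (0.0139) and IER2 by 0.51 ± 0.14 (0.00806), with 49.3 ± 1.2 TPM for IER2 with siVRK1 and 71.0 ± 4.0 TPM with siCtrl (SD, n = 3 each).

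JUN rose by 0.26 ± 0.04 (adjusted p = 0.000289) and FOSL2 by 0.24 ± 0.07 (0.0101). JUND rose by 0.45 ± 0.14 (0.0173) and FOSL1 by 0.10 ± 0.03 (0.0206), and both lost their call without siCtrl library 1 (adjusted p = 0.0777 and 0.0987), FOSL1 also without siVRK1 library b (0.0771). EGR1, already low in the ES2 siRNA libraries, measured 5.06, 4.82 and 6.10 TPM with siVRK1, against 4.03, 4.30 and 5.06 TPM with siCtrl, and these ranges overlap. FOS (-0.16 ± 0.32) and FOSB (-0.45 ± 0.43) did not pass either, although the 3 siVRK1 libraries of FOSB (0.481, 0.452 and 0.437 TPM) all lay under the siCtrl libraries (0.829, 1.38 and 0.825 TPM), with all of them near or under 1 TPM. The leukocyte markers summed to 71.4 to 79 TPM with siVRK1 and 36 to 42.2 TPM with siCtrl, the fibroblast markers to 49.6 to 61.9 TPM with siVRK1 and 80 to 95.3 TPM with siCtrl, and the epithelial markers to 636 to 675 TPM with siVRK1 and 962 to 986 TPM with siCtrl; their part in these results was not tested.

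Tested directly, the siVRK1 effect differed between the lines for 2 members, in a contrast that called 33.9% of 14328 genes, 20.7% as higher and 13.2% as lower. The effect on IER3 was lower in ES2 than in A2780 by 0.81 ± 0.16 (difference -0.81, adjusted p = 0.000492), and the effect on FOSL1 was lower by 0.44 ± 0.15 (difference -0.44, adjusted p = 0.0287). The FOSL1 difference was lost in 8 of the 12 fits that leave out 1 library and with quantile normalization (adjusted p = 0.146). For EGR1 the difference was 1.08 ± 0.46 (95% interval 0.12 to 2.04, adjusted p = 0.0782), and in a fit of the 12 siRNA libraries alone, which leaves out the scattered luteolin libraries, its adjusted p was 5.68e-05. JUNB fell in both lines, and the difference of 0.10 ± 0.23 (95% interval -0.38 to 0.58) does not show that the effects were alike.

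Some members differed between the siCtrl and DMSO libraries. EGR1 in ES2 measured 4.03, 4.30 and 5.06 TPM with siCtrl, against 42.4, 43.0 and 36.8 TPM with DMSO, a difference of -2.93 ± 0.40 (adjusted p = 5.12e-05), and mean TPM was 9.13-fold lower with siCtrl. The contrast called 56.2% of the 12507 genes tested, 34.7% as higher and 21.5% as lower, and 5 of 10 members, 3 higher and 2 lower. All siCtrl libraries lay above all DMSO libraries for 3 members and below for 4, against 38.5% and 24.7% of all genes. JUNB was higher with siCtrl by 0.90 ± 0.20 (adjusted p = 0.00236) and JUN lower by 0.30 ± 0.04 (difference -0.30, adjusted p = 6.96e-05). FOSL1 (0.13 ± 0.03, adjusted p = 0.005) and IER2 (0.37 ± 0.14, adjusted p = 0.0396) were also called, but FOSL1 lost its call under both rescalings, and IER2 lost it under both and in all 6 fits that leave out 1 library. JUND, at -0.32 ± 0.14 (adjusted p = 0.0729), was called lower under both (-0.39, 0.0305, and -0.37, 0.0349). Rescaling by quantiles gave 3507 genes higher and 3336 lower, against 4339 and 2692.

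In A2780, JUND measured 76.8, 73.2 and 76.7 TPM with siCtrl, against 152, 150 and 144 TPM with DMSO. FOSL1 measured 3.72, 3.87 and 4.38 TPM with siCtrl, against 1.73, 1.99 and 1.74 TPM with DMSO. JUN, under 1 TPM throughout, measured 0.263, 0.53 and 0.335 TPM with siCtrl, against 0.109, 0.204 and 0.134 TPM with DMSO, with no overlap. Its difference of 0.26 ± 0.14 was not called (adjusted p = 0.136). It was called with a pseudocount of 0.1 (0.92, adjusted p = 0.0304) and in no other setting. JUN passed the filter only through the luteolin group, so its values in this contrast are a description. EGR1 measured 38.3, 37.5 and 37.5 TPM with siCtrl, against 44.3, 43.4 and 39.7 TPM with DMSO, with no overlap; the difference between the lines in this contrast was not tested. All siCtrl libraries lay above all DMSO libraries for 3 members and below for 3, against 50.8% and 13.4% of all genes. The contrast called 58.1% of 13012 genes, 47.2% as higher and 10.9% as lower, and 4 of 10 members, 2 in each direction, and its median gene was 0.24 higher with siCtrl, a shift that median-of-ratios scaling removed (2949 genes higher and 3467 lower, against 6144 and 1412). Before that shift JUND differed by -0.97 ± 0.07 (adjusted p = 1.06e-06), FOSL1 by 0.82 ± 0.15 (0.000467), IER3 by 0.31 ± 0.09 (0.00798), IER2 by -0.14 ± 0.05 (0.0224) and EGR1 by -0.16 ± 0.12 (0.241). Relative to the median gene the differences were -1.21, 0.58, 0.07, -0.39 and -0.41. EGR1 was called lower under median-of-ratios scaling (-0.43, adjusted p = 0.0113), under quantiles (-0.38, 0.0182) and with only the groups compared (0.0467). The IER2 call was lost in 4 of the 6 fits that leave out 1 library, and the IER3 call under both rescalings (0.709 and 0.542). Treatments were each compared with their own control only, and between siCtrl and DMSO cells an effect of the siRNA treatment and one of the solvent cannot be told apart.

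Across the 8 group means, after the mean of each line was subtracted, several members moved alike, given as a description because the points share libraries and controls. FOS and FOSB correlated at 0.99, JUN and FOSL2 at 0.99, JUNB and IER2 at 0.98, and FOSL1 with JUN at 0.95, while EGR1 and FOSL1 correlated at 0.17. FOSB also correlated with IER2 at 0.96 and with JUNB at 0.94, and FOS with IER2 at 0.93, so these pairs are not separate sets. EGR1 had the widest range, 4.54 on the log2 scale, set by ES2, where the order was luteolin (152 ± 97 TPM), DMSO (40.7 ± 3.4), siVRK1 (5.32 ± 0.68) and siCtrl (4.46 ± 0.53; SD, n = 3 each); only the last neighbouring groups overlapped. In A2780 the order was luteolin, DMSO, siCtrl and siVRK1, with no overlap between neighbours, and the range was 1.75. The 5 genes whose pattern was most like that of EGR1 among 3454 compared were NT5M (r = 0.992), LDLRAD4 (0.975), KCTD19 (0.969), ADGRB2 (0.968) and SPOPL (0.967), over the 8 group means.

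The genes around AP-1 were counted from 7 lists of 100 genes. With luteolin 22.6% of all genes tested were higher and 25.8% lower in ES2, and 45.6% higher and 19.9% lower in A2780, and the list counts are read against these shares. Of 27 other immediate early genes tested in A2780, 26 were higher with luteolin and none lower, and under median-of-ratios scaling the split was 25 to 1. Their median relative to all genes was 1.34, against 1.14 for the 10 members. PLK2, a stress-responsive kinase, averaged 121 ± 6 TPM with luteolin and 7.10 ± 2.13 TPM with DMSO, and BTG2, an antiproliferative p53 target, 152 ± 17 TPM with luteolin and 13.6 ± 0.4 TPM with DMSO (SD, n = 3 each). In ES2, 18 of 23 were higher with luteolin and 1, CCN2, was lower at -0.71 ± 0.12, with a list median of 0.69; without luteolin library 2 the count was 21 higher and 1 lower. ATF3, a stress-induced partner of JUN proteins, averaged 18.3 ± 12.9 TPM with luteolin and 1.30 ± 0.55 TPM with DMSO in ES2, and 106 ± 5 TPM with luteolin and 13.3 ± 3.4 TPM with DMSO in A2780 (SD, n = 3 each).

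Among the AP-1 dimer partners 5 of 10 tested were higher and 1 lower with luteolin in ES2, and 5 higher and 2 lower of 11 in A2780, with list medians relative to all genes of 0.17 and 0.14. ATF4, the effector of the integrated stress response, averaged 546 ± 15 TPM with luteolin and 276 ± 25 TPM with DMSO in ES2 (0.99 ± 0.07, adjusted p = 4.33e-07). Of the EGR family and the NAB co-repressors, which bind EGR1 and are themselves its targets, 1 of 2 tested in ES2 and 4 of 4 in A2780 were higher with luteolin. NAB2 averaged 28.4 ± 2.0 TPM with luteolin and 14.6 ± 1.1 TPM with DMSO in ES2 (0.92 ± 0.07, adjusted p = 9.82e-07). The kinases and SRF factors upstream showed no common direction in ES2: 3 of 19 MAP kinase genes were higher and 4 lower, and none of the 6 SRF genes was higher and 1, ELK1, was lower. In A2780, 6 of 18 MAP kinase genes were higher and 2 lower, a split that became 3 higher and 7 lower with median-of-ratios scaling; 4 of 6 SRF genes were higher. The turnover and co-regulator genes gave no call in 8 tested in ES2 and 4 higher and 1 lower of 7 in A2780, where FBXW7, a ubiquitin ligase subunit that targets JUN, rose by 1.54 ± 0.15 relative to the median gene.

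Genes known as AP-1 targets were counted in the same way. In ES2, 10 of 17 tested were higher and 2 lower, with IL6 (1.40 ± 0.32) and CXCL8 (1.19 ± 0.10), both inflammatory cytokines, leading, and MMP1, a collagenase, lower at -0.56 ± 0.03. In A2780, 7 of 12 were higher and 3 lower, near the shares over all genes (45.6% and 19.9%), and HMOX1, a haem-degrading enzyme, averaged 189 ± 27 TPM with luteolin and 22.3 ± 1.6 TPM with DMSO (SD, n = 3 each). Without treatment the lines differed in these genes as well: 14 of 18 were higher in ES2 siCtrl and DMSO libraries and 4 lower, with a list median of 2.68 relative to all genes, in a contrast in which 34.3% of all genes were higher and 49.4% lower. MMP1 averaged 4843 ± 112 TPM in ES2 DMSO libraries and 2.94 ± 0.21 TPM in A2780 DMSO libraries, and CD44, a hyaluronan receptor, 460 ± 18 TPM in ES2 and 0.047 ± 0.027 TPM in A2780. MMP10, a stromelysin, ran the other way, at 0.126 ± 0.077 TPM in ES2 and 525 ± 29 TPM in A2780 (SD, n = 3 each).

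With siVRK1, 26.8% of all genes tested were higher and 28.0% lower in ES2, and 13.8% higher and 27.0% lower in A2780. Of the other immediate early genes, 3 of 23 were higher and 10 lower in ES2, with a list median of -0.22, and 5 higher and 9 lower of 27 in A2780 (6 and 7 with median-of-ratios scaling). CCN2, a matricellular growth factor and target of YAP, averaged 102 ± 3 TPM with siVRK1 and 19.7 ± 0.5 TPM with siCtrl in A2780, but 322 ± 18 TPM with siVRK1 and 657 ± 11 TPM with siCtrl in ES2 (SD, n = 3 each). This difference between the lines was tested, at -3.34 ± 0.15 (adjusted p = 2.1e-12). Of the AP-1 targets, 5 of 17 were higher and 8 lower in ES2 and 3 higher and 3 lower of 12 in A2780; the higher count in ES2 and the lower count in A2780 lie near the shares over all genes. IL11, a cytokine of the IL6 family, averaged 28.6 ± 2.4 TPM with siVRK1 and 2.68 ± 0.55 TPM with siCtrl in ES2, and MMP3 averaged 31.0 ± 2.4 TPM with siVRK1 and 5.74 ± 0.86 TPM with siCtrl (SD, n = 3 each). The largest falls among these targets in ES2 were EREG at -1.53 ± 0.09 (adjusted p = 2.1e-08) and PLAU at -1.21 ± 0.04 (5.05e-10). For 3 of these genes siCtrl minus DMSO in ES2 ran opposite to the siVRK1 change. It was -2.23 for IL11, 0.89 for EREG and 1.26 for PLAU, and both contrasts share the siCtrl libraries.

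The upstream kinases split in ES2 with siVRK1, 6 higher and 5 lower of 19, and in A2780 1 was higher and 5 lower of 18 (3 and 3 with median-of-ratios scaling). MAPK3, which encodes the kinase ERK1, averaged 35.8 ± 1.4 TPM with siVRK1 and 9.98 ± 1.61 TPM with siCtrl in ES2 (1.76 ± 0.09, adjusted p = 1.34e-08), and 24.2 ± 2.1 TPM with siVRK1 and 18.3 ± 1.5 TPM with siCtrl in A2780 (SD, n = 3 each). The ES2 DMSO libraries, which share no treatment with these, held 32.2 ± 0.4 TPM of it. The dimer partners gave 1 higher and 5 lower of 10 in ES2, where ATF2 rose by 1.0 ± 0.08, and 1 higher and none lower of 11 in A2780 (4 and 0 with median-of-ratios scaling). SRF, which drives the CArG box, rose in both lines, by 0.44 ± 0.07 in ES2 and 0.68 ± 0.05 in A2780, and was the only 1 of 6 SRF genes called higher in either; ELK1 of the same list was lower in A2780 (-0.18 ± 0.06, adjusted p = 0.0315), a call that median-of-ratios scaling did not give. The EGR and NAB list gave 1 higher of 2 tested in ES2, NAB2, and 1 lower of 4 in A2780, NAB1; the turnover list gave 1 higher and 1 lower of 8 in ES2 and 1 lower of 7 in A2780, the lower gene in both was COP1, a ubiquitin ligase that targets JUN, at -0.38 ± 0.08 in ES2 and -0.23 ± 0.07 in A2780, where neither rescaling gave a call. For the genes named here in ES2, siCtrl minus DMSO ran opposite to the siVRK1 change, at -1.61 for MAPK3, -0.72 for ATF2 and -0.51 for SRF. It was -0.53 for NAB2 and 0.56 for COP1, and both contrasts share the siCtrl libraries. ATF3 and SRF each stand in 2 of the lists.

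Several members rest on more than 1 transcript. FOS-201 carried 75.1% ± 9.98 of FOS TPM with luteolin and 79.3% ± 17.9 with DMSO in A2780, and 61.5% ± 13.1 with luteolin and 82.3% ± 10.9 with DMSO in ES2 (SD, n = 3 each). FOSB-201 carried 45.8% ± 10.1 of FOSB TPM with luteolin and 51.1% ± 37.5 with DMSO in A2780, while in ES2 with luteolin FOSB-203 held 36.5% ± 14.7; at such low levels the split between isoforms is uncertain. FOSL1-201 held 56.0% to 75.6% of FOSL1 TPM in the 8 groups. IER3 was a special case: 4 transcripts carried equal TPM, 22.7% of IER3 each in ES2 luteolin libraries, and these IDs are not on the primary chromosomes of GENCODE 29, so the IER3 level is a sum over copies between which reads were divided.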

How the data were processed

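Transcript levels were deposited as 1 table of TPM (transcripts per 1000000), 1 column per library. Per the submitters' processing notes, FastQC, kallisto and the build hg19 were used, with no versions or parameters given in the sources used here. The table has 193845 lines, of which 1958 repeat another line; the 191887 distinct transcripts sum to 1000000 TPM in every library, so depth is unknown. Distinct transcripts were summed per gene symbol, leaving out those without a symbol (0.514% to 1.03% of TPM).

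Groups were taken from sample titles, since the treatment and cell line labels of later replicates count upwards. Genes with at least 1 TPM in at least 3 libraries were tested as log2(TPM + 1) with limma 3.58.1 (trend, two-sided) in R 4.3.3, with 12 libraries per within-line fit and 24 between lines, and Benjamini-Hochberg adjustment over all genes tested. The steps were tested on simulated data. Members and lists were chosen with earlier results of these data known. Members are always named; list genes were named by size of change among those past the threshold, with a minimum of 5 TPM, and list genes that make up a count of 5 or fewer were added after their values were seen. Alternatives were other pseudocounts, filters, scalings and libraries left out. Promoter sequences came from RefSeq (GRCh38.p14) and transcript names from GENCODE 29, neither on the build hg19.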

Additional observations from a re-analysis of the deposited data

Results flagged for a closer look

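The effect of a treatment differed between ES2 and A2780, by a test of the difference itself in limma, for FOSL1 and IER3 under siVRK1 and for 5 genes under luteolin; all values are log2 differences, ES2 minus A2780, not set against the median gene. The siVRK1 effect differed by -0.44 for FOSL1 and by -0.81 for IER3. The luteolin effect differed by -3.46 for FOSL1, -1.68 for JUN, -0.94 for FOSL2, 0.60 for JUNB and -0.39 for IER3. Of these, 3 calls were not stable when 1 of the 12 libraries compared was left out. The FOSL1 difference under siVRK1 was lost in 8 such fits, the JUNB difference under luteolin in 7 and the IER3 difference under luteolin in 8. Relative to the median gene the IER3 difference under luteolin was -0.19. FOSL1, JUN and FOSL2 were also the 3 subunits with the largest excess of ES2 over A2780 in the siCtrl and DMSO libraries. Both contrasts use the DMSO libraries, with opposite sign, so they are not independent, and a link between them was not tested.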

How the results depend on the processing

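Over 9 alternative settings, 718 of the members' values kept their direction and their side of the threshold, 26 lost and 14 gained a call, and 12 changed sign; with 1 library left out the numbers were 645, 47, 6 and 19. No value that had passed the threshold changed sign, and the cause of the changes was not tested. In the siVRK1 difference between lines, FOSB was -0.14 and JUN -0.41 with a pseudocount of 0.1, and JUN -0.0101 and JUNB -0.0059 with median-of-ratios scaling. In A2780 siCtrl minus DMSO, FOSB, FOSL2 and JUNB were -0.16, -0.0816 and -0.19 with that scaling, where JUNB passed the threshold as lower (adjusted p = 0.0206), and -0.21, -0.14 and -0.12 with quantiles. In ES2 siCtrl minus DMSO, FOSB was -0.0094 with a pseudocount of 0.1 and -0.0314 with median-of-ratios scaling. Members called for the siVRK1 difference numbered 1 without a filter, 1 with quantiles and 4 with only the groups compared, against 2; for the luteolin difference 3 with a pseudocount of 5, without a filter and with only the groups compared, against 5. Leaving out 1 library gave ranges of 1 to 2 and 3 to 8 for these counts, -0.0751 to 0.22 for FOSL2 and -0.0047 to 0.0725 for IER3 (A2780 siVRK1), -0.0779 to 0.0605 for JUN (siVRK1 difference), -0.14 to 0.0556 for FOS and -0.10 to 0.26 for FOSB (A2780 siCtrl minus DMSO), and -0.13 to 0.0668 for FOSB and -0.0709 to 0.00 for FOSL2 (ES2 siCtrl minus DMSO). Replicate numbers did not pair the samples (correlations from -0.053 to 0.043); with a replicate block the A2780 siVRK1 change of FOSB had an adjusted p of 0.0505, the luteolin difference of IER3 0.0549 or 0.0634 by the order of the like-named libraries, and ES2 siCtrl minus DMSO of IER2 0.0541 or 0.053. For the siVRK1 difference 2962 genes were called higher and 1897 lower, 2242 and 2771 with median-of-ratios scaling; for the luteolin difference 2104 and 5125, 3594 and 3464 with that scaling. Depth is unknown, so levels near or under 1 TPM, such as JUN in A2780 and FOSB in ES2, carry an error that cannot be given.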
